A study of Homo sapiens with 12 samples.

Results

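The Krüppel-like factors (KLFs) are zinc finger transcription factors, and 10 KLF genes were followed here: KLF2, KLF3, KLF4, KLF5, KLF6, KLF7, KLF9, KLF10, KLF11 and KLF13. They were taken by gene symbol from a table of read counts, in which all 10 were found among 19974 Ensembl genes, and all 10 passed the filter on low counts that left 14865 Ensembl genes for testing. The counts come from RNA sequencing of WERI-Rb-1 (WERI) and Y79, 2 established human lines grown from retinoblastoma, a tumour of the developing retina, both labelled wild type. THZ1, which binds CDK7 covalently and also hits the related kinases CDK12 and CDK13, was given at 50 nM for 12 h, and control cultures of the same line had 0.1% DMSO, the solvent, for 12 h. The 4 groups are WERI in DMSO, WERI in THZ1, Y79 in DMSO and Y79 in THZ1, with 3 biological samples in each and 12 libraries in all. Each line is a single established line, so a difference between WERI and Y79 is a difference between these 2 lines.

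KLFs bind GC-rich and CACCC-type DNA, the sites that the related SP factors also bind, through zinc fingers at the end of the protein that are much alike in the whole family. The rest of the protein differs and sets the partners: KLF2, KLF4, KLF5, KLF6 and KLF7 carry activation domains that can recruit histone acetyltransferases, KLF3 recruits the corepressor CtBP, and KLF9, KLF10, KLF11 and KLF13 recruit the corepressor Sin3A. Several KLF genes are early response genes with short-lived transcripts, and in neurons of the retina KLF4 and KLF9 are known as brakes on axon growth and KLF6 and KLF7 as its promoters.

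Library totals ranged from 29677575 to 37433574 counts, and replicates of a group differed by more than counting noise, so none is a copy of another. The 13 mRNAs encoded in mitochondrial DNA took 3.74% to 4.46% of counts in DMSO and 8.44% to 11.2% in THZ1. In Y79 with THZ1, library 2 stood apart, with 14.8% of counts in ribosomal protein genes against 10.9% and 10.6% in libraries 1 and 3. Where leaving it out changed the call of a member, or moved its log2 fold change with THZ1 in a line by over 1.5 times, the value without it is given. Photoreceptor markers summed to between 781 and 2421 CPM (counts-per-million, scaled by TMM factors), with none of the 10 markers at 0 in any group. Endothelial markers summed to at most 2.28 CPM, epithelial markers to at most 3.17 and blood cell markers to at most 4.83.

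In both lines the KLF genes split in the same way with THZ1, by the quasi-likelihood test of edgeR with Benjamini-Hochberg adjustment over all tested features and a call at an adjusted p under 0.05. KLF4, KLF5, KLF6, KLF9 and KLF10 were called higher in WERI and in Y79, KLF3 and KLF11 were called lower in both, and KLF2, KLF7 and KLF13 were called in neither. That is 7 of 10 members in each line, where 64.8% of all tested genes were called in WERI and 68.3% in Y79, so the share of members called is near the background. The split by direction was 5 higher and 2 lower in each line, beside 27.7% of all genes called higher and 37.2% lower in WERI, and 29.9% higher and 38.5% lower in Y79. Over the 2 lines, which share no library, 5 of 10 members were called higher in both and 2 lower in both, and 0 were called in opposite directions. That 0 rests on library 2 of Y79 in THZ1: without it KLF7 was called lower in WERI (-0.31, adjusted p = 0.00809) and higher in Y79 (0.47, adjusted p = 0.000948), and the call of KLF9 in Y79 was lost (0.25, adjusted p = 0.0572). The same counts over all tested genes were 3245 higher in both (21.8%), 4593 lower in both (30.9%) and 259 opposite (1.74%). The median log2 fold change of the 10 members was 0.42 in WERI and 0.52 in Y79, beside -0.11 and -0.09 over all tested genes. In bulk RNA, less RNA per cell and fewer cells that hold it cannot be told apart, so these are changes in a share of the RNA of a culture.

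These directions are relative to the TMM scale, which takes most genes as unchanged. With libraries scaled by their total counts alone, the median of all genes moved to -0.56 in WERI and -0.65 in Y79, and the members split 4 higher to 4 lower in each line. With libraries scaled by their mitochondrially encoded mRNAs, the medians of all genes were -2.01 and -1.80, and the members split 1 higher to 9 lower in WERI and 1 higher to 8 lower in Y79. Over all genes, the share of calls that were rises went from 42.7% with TMM to 21.8% with library size and 0.826% with mitochondrial scaling in WERI, and from 43.7% to 20.7% and 2.27% in Y79. Under every one of these scalings KLF4 was called higher and KLF3 and KLF11 were called lower, in both lines. KLF5, KLF6 and KLF10 were called higher with library size too and were called lower with mitochondrial scaling, while KLF9 turned below 0 with either. Which of these references stayed constant per cell was not tested.

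**Figure D1:**
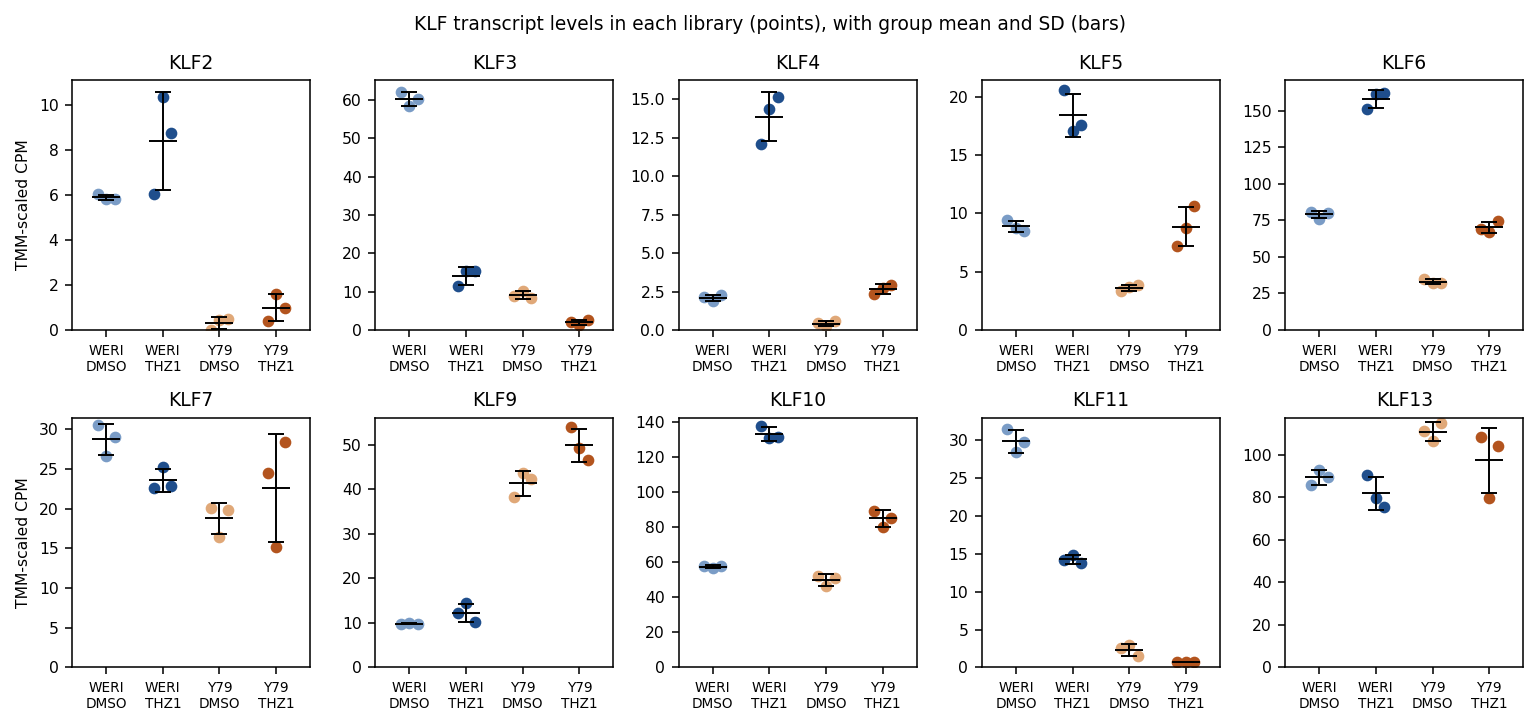
Level of each of the 10 KLF genes in the 12 libraries, in TMM-scaled CPM on a linear axis from 0, with 1 panel per gene, 3 points per group, and bars for the group mean and SD. On this scale the THZ1 points of KLF4, KLF5, KLF6 and KLF10 lie above the DMSO points of their line and those of KLF3 and KLF11 below them; with mitochondrial scaling KLF5, KLF6 and KLF10 are lower with THZ1 instead.

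Among the genes of the activator type, KLF4 had the largest rise. KLF4, a factor best known for its use in reprogramming cells to pluripotency and for slowing the cell cycle (chr9:107484852-107490482, minus strand, GENCODE 29 on GRCh38), stood at 2.14, 1.87 and 2.28 CPM in WERI with DMSO and at 12.1, 14.4 and 15.1 CPM with THZ1. In Y79 it stood at 0.452, 0.226 and 0.554 CPM with DMSO and at 2.31, 2.76 and 2.95 CPM with THZ1. Within each line every THZ1 library lay above every DMSO library, while the Y79 libraries with THZ1 only reached a level just above that of untreated WERI. The counts behind these values were 77 to 105 in WERI with DMSO and 9 to 23 in Y79 with DMSO, so the Y79 baseline is the least certain number. The log2 fold change was 2.72 (SE 0.230, adjusted p = 1.84e-07) in WERI and 2.69 (SE 0.267, adjusted p = 7.10e-07) in Y79, which is 6.60-fold and 6.43-fold. Only 1.26% of tested genes had a larger log2 fold change in WERI and 2.79% in Y79. With mitochondrial scaling the rise was 0.83 in WERI and 1.00 in Y79.

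KLF5 and KLF6 rose in both lines on the TMM scale, from different levels. KLF5, an activator of proliferation in epithelial cells (chr13:73054976-73077542, plus strand), stood at 9.41, 8.71 and 8.52 CPM in WERI with DMSO and at 20.6, 17.1 and 17.6 with THZ1. The Y79 libraries held 3.33, 3.66 and 3.83 CPM with DMSO and 7.21, 8.77 and 10.6 with THZ1. The groups did not overlap in either line, and the log2 fold changes were 1.05 (SE 0.144, adjusted p = 2.03e-05) in WERI and 1.29 (SE 0.152, adjusted p = 3.75e-06) in Y79. KLF6, a ubiquitous factor with tumour suppressor functions (chr10:3775996-3785281, minus strand), was among the best measured members. It stood at 80.5, 76.1 and 80.2 CPM in WERI with DMSO and at 151, 161 and 162 with THZ1. Levels in Y79 were 35.1, 31.9 and 32.3 CPM with DMSO and 69.2, 66.9 and 74.4 with THZ1. Again no THZ1 library overlapped a DMSO library, and the log2 fold changes were 1.00 (SE 0.0667, adjusted p = 1.97e-08) in WERI and 1.08 (SE 0.0682, adjusted p = 7.31e-09) in Y79. With mitochondrial scaling both genes were below 0, KLF5 at -0.85 in WERI and -0.41 in Y79 and KLF6 at -0.90 and -0.63.

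The region before the start of each of these 3 genes that rose in both lines is shown with that of KLF13, a member called in neither line, because all 4 hold the GC boxes that KLF and SP factors bind. The sequences are RefSeq's on GRCh38.p14, 250 bases up to the base before the annotated start, written along the gene's own strand. Capitals mark GGGCGG or CACCC on either strand, so that CCGCCC and GGGTG are also in capitals. The 2 motifs overlap at 1 place in KLF13.
KLF4, chr9:107489770-107490019, minus strand: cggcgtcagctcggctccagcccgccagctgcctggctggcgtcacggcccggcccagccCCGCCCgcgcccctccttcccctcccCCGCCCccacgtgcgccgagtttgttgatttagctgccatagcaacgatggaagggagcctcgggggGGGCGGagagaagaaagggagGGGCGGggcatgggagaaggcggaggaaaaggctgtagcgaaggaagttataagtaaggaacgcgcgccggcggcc
KLF5, chr13:73058755-73059004, plus strand, before the second of its 2 annotated starts: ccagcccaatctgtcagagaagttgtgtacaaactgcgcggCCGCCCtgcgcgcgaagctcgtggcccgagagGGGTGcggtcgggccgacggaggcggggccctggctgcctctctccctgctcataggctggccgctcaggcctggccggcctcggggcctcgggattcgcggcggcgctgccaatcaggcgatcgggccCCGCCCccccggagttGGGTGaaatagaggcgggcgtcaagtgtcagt
KLF6, chr10:3785210-3785459, minus strand: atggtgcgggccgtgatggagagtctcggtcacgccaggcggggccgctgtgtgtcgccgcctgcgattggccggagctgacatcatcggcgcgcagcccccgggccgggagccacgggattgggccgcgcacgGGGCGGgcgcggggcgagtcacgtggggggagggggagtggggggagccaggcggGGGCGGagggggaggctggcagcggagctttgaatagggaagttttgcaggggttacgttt
KLF13, chr15:31326585-31326834, plus strand: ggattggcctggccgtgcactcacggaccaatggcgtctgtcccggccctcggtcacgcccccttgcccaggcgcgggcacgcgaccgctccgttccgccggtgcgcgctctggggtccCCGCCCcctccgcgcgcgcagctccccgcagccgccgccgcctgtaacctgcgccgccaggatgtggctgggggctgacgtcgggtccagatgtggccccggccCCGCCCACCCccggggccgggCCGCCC

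GGGCGG stood 4 times in the KLF4 stretch, 2 times each in those of KLF5 and KLF6, and 3 times in that of KLF13. CACCC stood 2 times in KLF5, 1 time in KLF13 and 0 times in KLF4 and KLF6. Windows of 300 bases, from 250 before to 50 after a start, were available for 8 of the 10 members, which have 13 annotated starts there; KLF3 and KLF10 had no entry. GGGCGG was in 8 of the 13 windows and CACCC in 7, beside 45.0% and 59.9% of all 35116 windows of that length in the same table. The second of the 2 KLF11 windows held 7 GGGCGG motifs, and 5.14% of all windows held 5 or more. The 13 windows ranged in GC content from 32.7%, at KLF9, to 80.7%, at KLF2, around a median of 58.7% over all windows. The MEF2 box, the site of the MEF2 factors that are known to switch on KLF2, was in the KLF2 window at position -120 from the start and in 0.572% of all windows. A CArG box, the site of SRF, was at -62 in 1 of the 4 KLF7 windows and in 1.29% of all windows. These are matches of letters only. The stretches shown were chosen among those that hold GGGCGG. It was absent from the window of KLF9, which also rose, and from that of the first KLF5 start, and no test was made.

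KLF2, a factor known from endothelial cells and resting T cells (chr19:16324817-16327874, plus strand), was the least certain of the activators. In WERI it stood at 6.03, 5.81 and 5.83 CPM with DMSO and at 6.05, 10.4 and 8.73 with THZ1. The 2 groups touch, since library 1 of THZ1 is level with the DMSO libraries, and the log2 fold change of 0.51 (95% confidence interval -0.60 to 1.62, adjusted p = 0.416) was not called. In Y79 the counts were 0, 17 and 21 with DMSO and 11, 33 and 23 with THZ1, and a count of 0 in such a library allows up to 3. The groups overlap, and the log2 fold change of 1.62 (95% confidence interval 0.12 to 3.13, adjusted p = 0.0567) fell just short of the call. It was called without library 3 of Y79 in DMSO (2.17, adjusted p = 0.0356) and without library 1 of Y79 in THZ1 (2.01, adjusted p = 0.0232). The estimate was lower without library 1 of Y79 in DMSO, the one with 0 counts (1.03, adjusted p = 0.0714), and without library 2 of Y79 in THZ1, which holds the highest count (1.07, adjusted p = 0.298). Its adjusted p ran from 0.0118 to 0.956 over all alternatives. In WERI, a fit to the WERI libraries alone called the same fold change of 0.51 (adjusted p = 0.0150). The range of adjusted p over the WERI alternatives was 0.0150 to 0.926. These ranges hold both directions: with mitochondrial scaling KLF2 was called lower in WERI (-1.37, adjusted p = 0.0439). In Y79 it stood at -0.068 on that scale (adjusted p = 0.956).

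KLF7, which acts in the outgrowth of axons (chr2:207074137-207167267, minus strand), was called in neither line on the TMM scale, and the call depends on 1 library and on the scaling. In WERI it stood at 30.5, 26.7 and 29.1 CPM with DMSO and at 22.6, 25.3 and 22.9 with THZ1, with no overlap and a log2 fold change of -0.29 (95% confidence interval -0.65 to 0.08, adjusted p = 0.167). In Y79 it stood at 20.04, 16.5 and 19.8 CPM with DMSO and at 24.5, 15.1 and 28.4 with THZ1. The low value of 15.1 belongs to library 2, the one that stands apart in ribosomal protein genes, and the log2 fold change with it was 0.27 (95% confidence interval -0.10 to 0.65, adjusted p = 0.185). Without that library KLF7 was called higher in Y79 (0.47, adjusted p = 0.000948) and lower in WERI (-0.31, adjusted p = 0.00809), where the SE was 0.0950 in place of 0.171. With all libraries it was called lower in WERI with library size alone (-0.73, adjusted p = 0.00624) and with mitochondrial scaling (-2.18, adjusted p = 2.37e-09), and in Y79 with mitochondrial scaling (-1.43, adjusted p = 7.64e-07). A fit to the WERI libraries alone called the fall there too (-0.29, adjusted p = 0.00458). The adjusted p lay between 2.37e-09 and 0.329 in WERI and between 7.64e-07 and 0.738 in Y79 over all alternatives.

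KLF3, the member of the CtBP-binding type, had the largest fall. KLF3 (chr4:38664196-38701042, plus strand), known as a repressor in fat and blood cells, stood at 62.1, 58.5 and 60.3 CPM in WERI with DMSO and at 11.4, 15.3 and 15.5 with THZ1. The Y79 libraries held 8.75, 10.3 and 8.43 CPM with DMSO and 2.09, 1.31 and 2.54 with THZ1, the last from 27 to 61 counts a library. No THZ1 library overlapped a DMSO library of its line, and Y79 in DMSO already lay below WERI in THZ1. The log2 fold change was -2.10 (SE 0.158, adjusted p = 5.86e-08) in WERI and -2.19 (SE 0.187, adjusted p = 1.53e-07) in Y79, a 4.29-fold and a 4.57-fold lower level. Of all tested genes, 2.95% had a smaller log2 fold change in WERI and 4.75% in Y79. An antisense gene, KLF3-AS1, overlaps 266 exonic bases of KLF3, and since the library kit does not keep the strand, reads of the 2 cannot be told apart there.

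Among the genes of the Sin3A-binding type, 1 rose clearly, 1 rose slightly, 1 fell and 1 did not pass the test. KLF10, an early target of TGF-beta (chr8:102648779-102655902, minus strand), stood at 58.1, 56.9 and 57.6 CPM in WERI with DMSO and at 138, 131 and 131 with THZ1. Levels in Y79 were 52.4, 46.3 and 51.2 CPM with DMSO and 89.5, 80.1 and 85.5 with THZ1. The 2 lines thus began at nearly the same level and ended apart, with no overlap between DMSO and THZ1 in either. The log2 fold changes were 1.21 (SE 0.0676, adjusted p = 4.17e-09) in WERI and 0.77 (SE 0.0676, adjusted p = 2.08e-07) in Y79. With mitochondrial scaling they were -0.68 and -0.94.

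KLF11, a close relative of KLF10 that represses through the same partner (chr2:10042849-10054836, plus strand), moved the other way. It stood at 31.5, 28.4 and 29.8 CPM in WERI with DMSO and at 14.2, 14.8 and 13.7 with THZ1. The Y79 libraries held 2.59, 2.91 and 1.44 CPM with DMSO and 0.757, 0.678 and 0.665 with THZ1, the last from 14 to 21 counts a library. The groups did not overlap, and the log2 fold changes were -1.07 (SE 0.171, adjusted p = 9.10e-05) in WERI and -1.71 (SE 0.244, adjusted p = 2.57e-05) in Y79. The antisense gene AC104794.4 overlaps 416 exonic bases of KLF11, with the same limit as for KLF3.

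KLF9, a direct target of glucocorticoid and thyroid hormone receptors (chr9:70384597-70414624, minus strand), changed little. It stood at 9.78, 9.85 and 9.70 CPM in WERI with DMSO and at 12.2, 14.4 and 10.2 with THZ1. Levels in Y79 were 38.2, 43.5 and 42.2 CPM with DMSO and 53.8, 49.2 and 46.5 with THZ1. The groups do not overlap but nearly touch, and the log2 fold changes were 0.33 (SE 0.115, adjusted p = 0.0238) in WERI and 0.27 (SE 0.108, adjusted p = 0.0420) in Y79. These are the weakest calls among the members. In WERI the call was lost without library 1, 2 or 3 of WERI in DMSO (adjusted p = 0.0557, 0.0518 and 0.0611) and without library 2 of WERI in THZ1 (0.17, adjusted p = 0.202). In Y79 it was lost when any of 9 libraries was left out, with adjusted p from 0.0514 to 0.178, and remained without libraries 2 or 3 of WERI in THZ1 or library 3 of Y79 in THZ1. Over all alternatives the adjusted p lay between 2.50e-08 and 0.450 in WERI and between 4.46e-08 and 0.178 in Y79, the lowest values belonging to falls under mitochondrial scaling.

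KLF13, which activates the chemokine gene CCL5 in T cells (chr15:31326855-31435665, plus strand), was abundant in all 4 groups. It stood at 86.0, 92.9 and 89.6 CPM in WERI with DMSO and at 90.6, 79.6 and 75.5 with THZ1. In Y79 it stood at 111, 106 and 115 CPM with DMSO and at 108, 79.9 and 104 with THZ1. The groups overlapped in both lines, and the log2 fold changes of -0.13 (95% confidence interval -0.35 to 0.09, adjusted p = 0.306) and -0.19 (95% confidence interval -0.41 to 0.04, adjusted p = 0.131) were not called on the TMM scale. With library size alone KLF13 was called lower in WERI (-0.58, adjusted p = 0.00152) and in Y79 (-0.74, adjusted p = 0.000183), and with mitochondrial scaling too (-2.03 and -1.90). A fall in WERI was called without library 2 of Y79 in THZ1 (-0.15, adjusted p = 0.0358), and in Y79 without library 1 of Y79 in THZ1 (-0.29, adjusted p = 0.0297). Without library 2 of Y79 in THZ1, the lowest of its group, the estimate in Y79 was -0.09 (adjusted p = 0.275). The adjusted p lay between 1.24e-11 and 0.754 in WERI and between 3.33e-11 and 0.516 in Y79 over all alternatives.

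**Figure D2:**
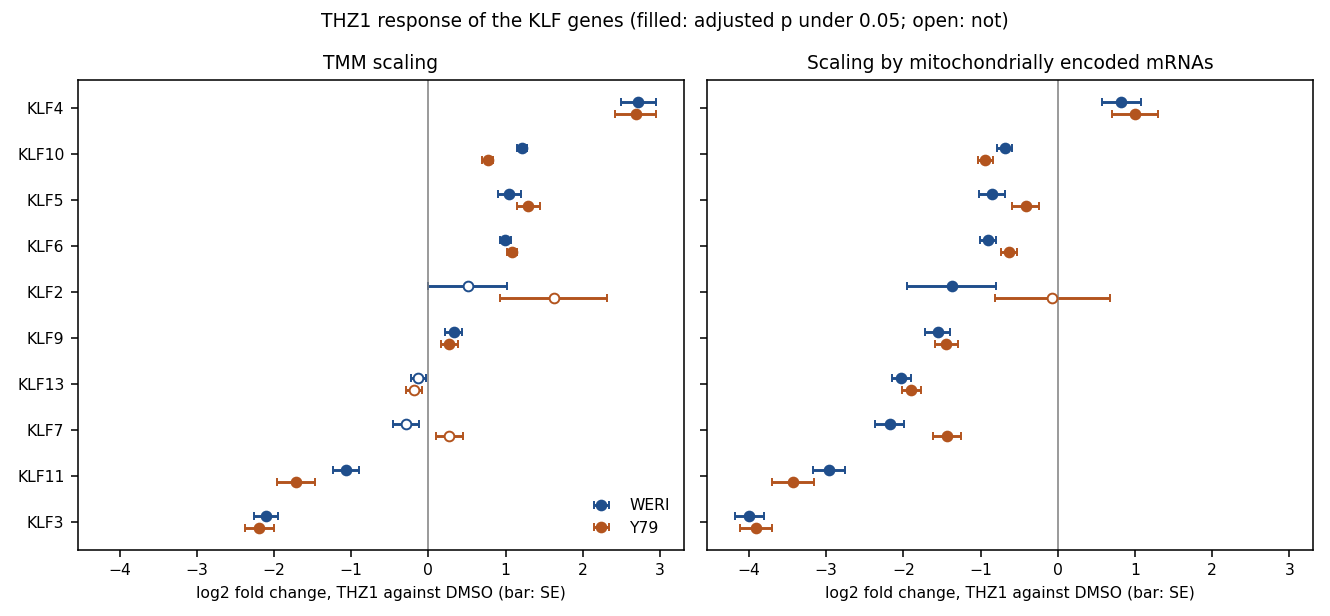
Log2 fold change of each KLF gene with THZ1 against DMSO in WERI (blue) and Y79 (orange), with bars for the SE, under TMM scaling on the left and under scaling by mitochondrially encoded mRNAs on the right; filled points passed an adjusted p under 0.05. The order of the genes is much the same in both panels, from KLF3 and KLF11 to KLF4, but every point lies lower in the right panel, where KLF4 alone is above 0, at 0.83 in WERI and 1.00 in Y79.

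**Figure D3:**
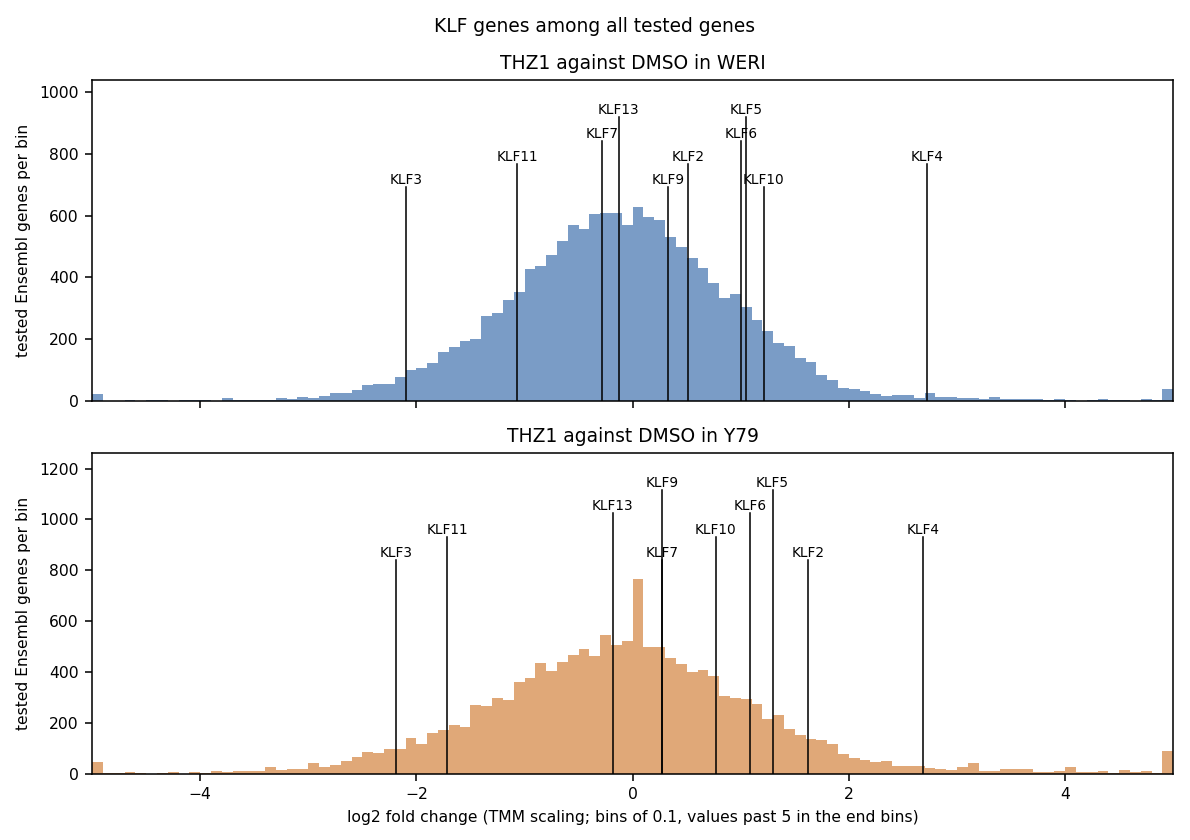
Number of tested Ensembl genes by log2 fold change with THZ1 in WERI (upper panel) and Y79 (lower panel) under TMM scaling, in bins of 0.1 with values past 5 in the end bins, and the 10 KLF genes as labelled lines. KLF4 lies far out on the right and KLF3 on the left in both lines, while KLF7, KLF9 and KLF13 lie near the middle.

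The difference between the lines in their response to THZ1 was then tested directly for each member, as Y79 minus WERI. Only KLF10 was called, 1 of 10 members where 22.0% of all tested genes were called. Without library 2 of Y79 in THZ1, 35.0% of all tested genes were called, and KLF7 was called beside KLF10. With all libraries the difference of KLF10 was -0.44 (SE 0.0948, adjusted p = 0.00544), a rise in Y79 that was smaller than that in WERI. Of all genes, 13.2% were called in this direction and 8.74% in the other. The call of KLF10 was lost with mitochondrial scaling (-0.26, adjusted p = 0.225), and over all alternatives its adjusted p ran from 7.14e-05 to 0.225. For KLF3, KLF6, KLF9 and KLF13 the difference was -0.09, 0.08, -0.06 and -0.06, with 95% confidence intervals of -0.61 to 0.42, -0.12 to 0.29, -0.40 to 0.28 and -0.37 to 0.26 in that order. The interval of KLF6 is the narrowest of these on the TMM scale, and with mitochondrial scaling its difference was 0.27 (SE 0.147, adjusted p = 0.237). KLF4 differed by -0.04, with a 95% confidence interval of -0.80 to 0.72 from the SEs of the 2 lines combined. KLF5 differed by 0.24 (95% confidence interval -0.20 to 0.69) and KLF2 by 1.11 (-0.75 to 2.98). When 1 library was left out, the KLF2 difference ranged from 0.52 to 1.67. KLF7 differed by 0.56 (adjusted p = 0.131) with all libraries and by 0.78 (adjusted p = 0.000491) without library 2 of Y79 in THZ1. KLF11 differed by -0.65 (adjusted p = 0.160) with all libraries and by -0.89 (adjusted p = 0.00755) without library 3 of Y79 in DMSO, its lowest DMSO library. The adjusted p of these 2 genes ran from 0.000491 to 0.300 and from 0.00755 to 0.384 over all alternatives.

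The 2 lines were then compared with each other. In DMSO all 10 members were called between Y79 and WERI, 2 higher in Y79 and 8 lower, where 64.9% of all tested genes were called, 32.3% higher and 32.6% lower. The median log2 fold change of the members was -1.28, beside 0.0036 over all tested genes. KLF2 (-4.24, SE 0.641, adjusted p = 8.61e-05) and KLF11 (-3.69, SE 0.194, adjusted p = 1.38e-09) were lowest in Y79, 18.9-fold and 12.9-fold below WERI. The value of KLF2 rests on counts of 0, 17 and 21 in Y79 and was -3.65 without library 1 of Y79 in DMSO, the one with 0 counts. KLF3 (-2.72), KLF4 (-2.34), KLF5 (-1.30), KLF6 (-1.25) and KLF7 (-0.62) were lower as well, with adjusted p from 1.88e-09 to 0.00658. KLF9 went the other way, 4.22-fold higher in Y79 (2.08, SE 0.114, adjusted p = 2.21e-09). The calls of KLF10 (-0.20, adjusted p = 0.0173) and KLF13 (0.31, adjusted p = 0.0174) were close to the threshold. That of KLF10 was lost without library 1 of WERI in DMSO (adjusted p = 0.0504) or library 2 of Y79 in DMSO (adjusted p = 0.0873), with a range of 0.000295 to 0.0873 over all alternatives. That of KLF13 was lost without library 1 of WERI in DMSO (adjusted p = 0.0631) or library 3 of Y79 in DMSO (adjusted p = 0.0589), and with library size or mitochondrial scaling, over a range of 9.54e-05 to 0.836.

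With THZ1 in both lines, 2 members were higher in Y79 and 7 lower, where 67.1% of all tested genes were called, 31.0% higher and 36.1% lower. These comparisons share libraries with those above. KLF11 was 20.2-fold lower in Y79 (-4.34, SE 0.230, adjusted p = 1.44e-09), KLF2 8.71-fold (-3.12, SE 0.597, adjusted p = 0.000537) and KLF3 7.03-fold (-2.81, SE 0.188, adjusted p = 1.41e-08). KLF4 (-2.38), KLF6 (-1.17), KLF5 (-1.06) and KLF10 (-0.65) were lower with adjusted p of at most 2.29e-05, and KLF9 was 4.06-fold higher (2.02, adjusted p = 2.84e-09). KLF7 no longer differed by the test (-0.06, 95% confidence interval -0.43 to 0.32, adjusted p = 0.801). The groups of KLF13 overlap, and its call of 0.25 (adjusted p = 0.0467) was lost in 10 of the 12 refits that leave out 1 library. The value without library 1 of Y79 in THZ1 was 0.16 (adjusted p = 0.211), and the adjusted p ran from 0.000205 to 0.939 over all alternatives.

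Levels of different genes can be set side by side only per length, so CPM were divided by the exonic length of each gene in kilobases. In WERI with DMSO the order was KLF10 at 14.4 CPM per kilobase, KLF6 at 12.9, KLF3 at 9.58, KLF13 at 9.51, KLF11 at 6.52, KLF7 at 3.10, KLF2 at 2.92, KLF5 at 2.28, KLF9 at 1.89 and KLF4 at 0.573. The libraries of KLF3 and KLF13 overlapped, and so did those of KLF7 and KLF2; all other neighbours in that order were apart in every library. With THZ1, KLF10 (33.3) and KLF6 (25.7) moved further ahead of KLF13 (8.70), and KLF3 went from the third place to the last (2.23). Between these stood KLF5 at 4.73, KLF2 at 4.15, KLF4 at 3.79 and KLF11 at 3.11. The libraries of KLF2 overlapped those of KLF5, KLF4 and KLF11, while KLF5, KLF4 and KLF11 were apart from each other. Then came KLF7 at 2.55 and KLF9 at 2.37, which overlapped each other, as did KLF9 and KLF3.

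In Y79 with DMSO the order per kilobase was KLF10 at 12.5, KLF13 at 11.8, KLF9 at 7.98, KLF6 at 5.39, KLF7 at 2.03, KLF3 at 1.45, KLF5 at 0.926, KLF11 at 0.505, KLF2 at 0.154 and KLF4 at 0.112. KLF10 overlapped KLF13, and KLF2 overlapped KLF4. With THZ1 it was KLF10 at 21.2, KLF6 at 11.4, KLF13 at 10.4, KLF9 at 9.63, KLF7 at 2.45, KLF5 at 2.28, KLF4 at 0.731, KLF2 at 0.487, KLF3 at 0.314 and KLF11 at 0.153. The neighbours from KLF6 to KLF9, from KLF7 to KLF5 and from KLF4 to KLF3 overlapped in this order. KLF10 thus had the highest mean in all 4 groups. KLF6 came next in WERI both with DMSO and with THZ1, and in Y79 with THZ1 only, where its libraries overlapped those of KLF13.

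**Figure D4:**
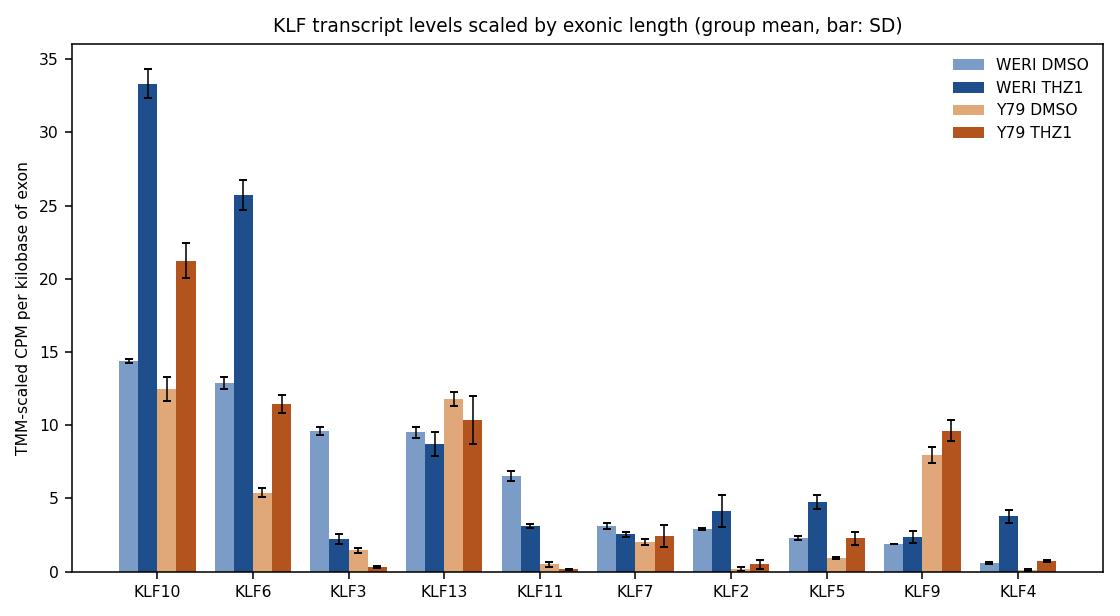
Level of each KLF gene per kilobase of exon in the 4 groups, as the mean of 3 libraries with the SD as bar, on a linear axis from 0 in TMM-scaled CPM per kilobase. KLF10 is highest in every group, KLF3 and KLF11 are high in WERI with DMSO alone, and KLF9 is high in Y79.

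The CPM of the 10 members summed to 372 ± 5.24 (SD, n = 3) in WERI with DMSO and 478 ± 5.48 (SD, n = 3) with THZ1. In Y79 they summed to 270 ± 7.04 (SD, n = 3) and 340.4 ± 29.5 (SD, n = 3), with 306 in library 2 and 358 and 357 in the others. The groups did not overlap in either line on this scale, with a log2 ratio of 0.36 in WERI and 0.33 in Y79. With library size alone the ratios were -0.09 and -0.24, and with mitochondrial scaling -1.54 and -1.38. Most of the sum is KLF6, KLF10 and KLF13, so it says little of the rarer members. It also mixes opposite changes, since KLF3 went from 60.3 to 14.1 CPM in WERI. In Y79 with DMSO, KLF9 held 41.3 CPM, more than KLF6 at 33.1.

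The members differed in gene structure. They span from 3058 bases, at KLF2, to 108811 bases, at KLF13, around a median of 32200 over all tested genes. Those that rose in both lines span 5631 (KLF4), 7124 (KLF10), 9286 (KLF6), 22567 (KLF5) and 30028 bases (KLF9). Of those that fell, KLF11 spans 11988 bases and KLF3 36847, and among the 3 called in neither line KLF2 is the shortest, KLF7 spans 93131 bases and KLF13 is the longest. All 5 members that rose were thus shorter than the median gene, but so were KLF11 and KLF2. ATTTA, the core of AU-rich elements that shorten the life of an mRNA, stood 2 times in the 3′ UTR of KLF4, 3 times each in those of KLF2 and KLF10, 5 times in those of KLF5 and KLF13, 6 times in those of KLF6 and KLF11, 8 times in those of KLF3 and KLF9, and 20 times in that of KLF7. The median over all genes was 2, or 1.55 per kilobase, and per kilobase the members ranged from 0.893 (KLF13) to 3.56 (KLF2). This is a description over 10 genes, without a test.

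Of the other 17 genes of the KLF and SP families, 13 were tested, and KLF8, KLF17, KLF18 and SP8 were not. In WERI 3 of the 13 were called higher and 5 lower, with a median log2 fold change of -0.03, and in Y79 2 higher and 5 lower, with a median of -0.30. That is 8 and 7 of 13 called, beside 64.8% and 68.3% of all tested genes. KLF15, a metabolic regulator induced by glucocorticoids, fell from 4.49 ± 0.119 to 2.01 ± 0.633 CPM (SD, n = 3) in WERI (-1.15, adjusted p = 0.000168) and from 14.7 ± 1.32 to 2.72 ± 0.309 CPM in Y79 (-2.44, adjusted p = 9.90e-08). KLF12, a CtBP-binding repressor like KLF3, was lower in both lines as well, at -1.06 (adjusted p = 2.98e-07) in WERI and -0.57 (adjusted p = 0.000126) in Y79; it was chosen after its values were seen. SP2 fell in both lines (-1.67 and -1.44, adjusted p = 2.88e-08 and 9.87e-08). SP9, which acts in interneuron development, went from 16.1 ± 1.45 to 29.3 ± 4.48 CPM in WERI (0.86, adjusted p = 8.14e-05) and from 12.2 ± 1.98 to 8.89 ± 0.290 CPM in Y79 (-0.45, adjusted p = 0.0128), a fall that was not called without library 3 of Y79 in DMSO (-0.32, adjusted p = 0.0722). With mitochondrial scaling SP9 was lower in WERI too (-1.03).

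Of 13 cofactors through which KLFs act, 4 were called higher and 7 lower in each line, with medians of -0.42 in WERI and -0.62 in Y79. Over all tested genes 27.7% were called higher and 37.2% lower in WERI, and 29.9% and 38.5% in Y79. Corepressor and coactivator genes were on both sides. The acetyltransferase EP300 fell in both (-1.65, adjusted p = 7.52e-08 in WERI; -1.82, adjusted p = 2.25e-08 in Y79). Among the corepressors, SIN3A fell (-1.35 and -0.91), and so did CTBP2, the partner of KLF3 (-0.97 and -1.49). The deacetylases HDAC1 (1.15, adjusted p = 1.86e-08 in WERI; 1.23, adjusted p = 6.22e-09 in Y79) and HDAC3 (1.06 and 0.88) rose on the TMM scale and were below 0 with mitochondrial scaling in both lines.

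Of 23 genes known to control KLF transcription or turnover, 22 were tested. In WERI 5 were called higher and 12 lower, with a median of -0.54, and in Y79 7 higher and 11 lower, with a median of -0.31, beside 64.8% and 68.3% of all tested genes called in either direction. MAPK7, the kinase that acts on MEF2 factors upstream of KLF2 and KLF4, fell by 1.39 on the log2 scale in WERI (adjusted p = 2.45e-06) and by 2.32 in Y79 (adjusted p = 2.11e-08). THRB, a thyroid hormone receptor of the kind that switches on KLF9, fell from 580 ± 25.8 to 141 ± 1.08 CPM (SD, n = 3) in WERI and from 61.1 ± 4.57 to 11.8 ± 2.29 CPM in Y79. ELK4, a partner of SRF, rose on the TMM scale (0.87 in WERI and 1.63 in Y79, adjusted p = 2.92e-05 and 6.09e-08). So did FBXW7, part of a ubiquitin ligase that removes KLF5 (0.68 and 1.18, adjusted p = 1.73e-05 and 6.86e-08). Both were below 0 with mitochondrial scaling.

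Of 14 genes often described as KLF targets 10 were tested, and 1 was called higher and 5 lower in WERI, and 2 higher and 5 lower in Y79, with medians of -0.998 and -0.87. The shares of all tested genes were 27.7% higher and 37.2% lower in WERI and 29.9% and 38.5% in Y79, or 64.8% and 68.3% in either direction. Only the number called in either direction is near the background. By direction these few genes lean lower, and the medians of all tested genes were -0.11 and -0.09. CDKN1A, the cell cycle inhibitor that KLF4 and KLF6 are known to activate, was lower in both lines, at -1.19 (adjusted p = 8.90e-09) in WERI and -0.75 (adjusted p = 5.46e-07) in Y79; it was chosen after its values were seen. CCNB1, a mitotic cyclin that KLF4 is known to repress, fell by 2.21 on the log2 scale in WERI (adjusted p = 5.74e-10) and by 2.76 in Y79 (adjusted p = 6.58e-11). SMAD7, an inhibitor of TGF-beta signalling that KLF10 and KLF11 are known to repress, rose from 27.7 ± 4.41 to 115 ± 4.26 CPM (SD, n = 3) in WERI and from 15.6 ± 0.530 to 69.0 ± 2.48 CPM in Y79. With mitochondrial scaling the rise of SMAD7 in WERI was not called (0.17, adjusted p = 0.203).

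Other genes of the pathways that switch on KLF genes were counted in the same way, beside 27.7% of all tested genes called higher and 37.2% lower in WERI, and 29.9% and 38.5% in Y79. Of 15 immediate early genes, 12 were called higher and 1 lower in WERI, and 10 higher and 3 lower in Y79, with medians of 1.85 and 2.46, and with mitochondrial scaling the split was 6 to 6 and 9 to 6. FOS, the best known of them, rose from 3.92 ± 0.273 to 76.6 ± 11.1 CPM (SD, n = 3) in WERI and from 1.55 ± 0.563 to 27.4 ± 0.835 CPM in Y79. NR4A1 of the same list was called lower in both lines (-0.58 and -0.64). Of 8 tested TGF-beta early genes, 4 were called higher and 1 lower in WERI, and 2 higher and 3 lower in Y79, with medians of 0.32 and 0.22. ID2, an inhibitor of differentiation, had the largest rise there (3.61 in WERI and 4.15 in Y79, adjusted p = 1.00e-11 and 4.06e-12). SKI of that list was called lower in both lines (-1.32 and -1.20). Of 6 glucocorticoid early genes, 3 were called higher and 1 lower in WERI, and 1 higher and 2 lower in Y79, with medians of 0.28 and -0.08. SGK1, a kinase of that list, rose in both lines (2.85 and 2.14, adjusted p = 4.57e-12 and 2.12e-11), while FKBP5 was called lower in both (-0.36 and -0.51).

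For the 3 members with the largest changes, the 3 genes with the most similar log2 CPM over the 12 libraries were sought among 10113 genes whose log2 CPM averaged 3 or more. ASIC4, DAP and SCARB2 were most like KLF4 (Pearson's r 0.991, 0.989 and 0.984), BRCA1, EML1 and KIF14 most like KLF3 (0.997, 0.995 and 0.994), and RAB29, FILIP1L and FAM72A most like KLF11 (0.993, 0.993 and 0.992). FAM72A has near-identical copies in the genome, so its counts are uncertain. The 12 points fall in 4 groups, so these values mostly repeat the group means. The log2 fold changes with THZ1 were smaller than those of the member in all 9 cases, such as 2.08 in WERI and 2.49 in Y79 for ASIC4 and -0.77 and -0.83 for BRCA1.

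Markers of other cell types moved in part with the groups. Photoreceptor markers summed to 2319 to 2421 CPM in WERI with DMSO and 1377 to 1421 with THZ1, and to 1361 to 1364 and 781 to 903 CPM in Y79. OTX2 and THRB make up most of the fall in WERI, with means of 940.4 and 580 CPM with DMSO and 325 and 141 with THZ1, while other markers were higher with THZ1, such as RCVRN from 156 to 322 and PDE6H from 28.4 to 62.6. Of the 4 fibroblast markers the sum was 23.3 to 26.0 CPM in WERI with DMSO and 51.5 to 53.7 with THZ1, with DCN at 0 in DMSO, and 1.71 to 2.29 and 2.89 to 4.03 CPM in Y79, with COL3A1 at 0 in both Y79 groups. COL1A1 carries nearly all of it, with means of 24.8 and 52.4 CPM in WERI, where COL1A2 stood at 0.155 and 0.160 and the other 2 genes below both. The 7 glial and pigment epithelium markers summed to 159.5 to 168 and 196 to 219 CPM in WERI and to 496 to 519 and 441 to 498 CPM in Y79, with TYR at 0 in every group. In Y79 GLUL carries most of it, with means of 499 CPM with DMSO and 444 with THZ1, while SLC1A3 stood at 0.361 and 0.376. BEST1 varied widely among replicates, at 28.8, 5.59 and 38.2 CPM in WERI with THZ1. The part of these shifts in the KLF values was not tested. KLF2, KLF4 and KLF5 are best known in endothelial and epithelial cells. The endothelial receptor gene KDR and the epithelial keratins KRT5 and KRT14 were at 0 in all 4 groups. Other markers of these cell types were detected at low levels. PECAM1 averaged 1.46 CPM in WERI with DMSO and EPCAM 2.16 CPM in WERI with THZ1, beside 2.10 CPM of KLF4 in WERI with DMSO.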

How the data were processed

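Read counts of the 12 libraries were taken from 1 deposited table of whole numbers, to which the authors applied no normalization as far as the values show. Per the labels' protocols, library preparation used the NEBNext Ultra RNA kit, so strand is not kept. Per the submitters' processing notes Cufflinks and the build GRCh38 were used; aligner, counting tool and annotation release were not given in the sources used here. It lists 19974 Ensembl genes and 7531 unannotated loci, 27505 features in all, and 27 symbols that had been turned into dates were restored from the Ensembl identifier. Positions, exonic lengths and 3′ UTRs are those of GENCODE 29 on GRCh38, and promoter windows are those of RefSeq on GRCh38.p14.

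Counts were tested in R 4.3.3 with edgeR 4.0.16: filterByExpr with default settings, TMM factors, and a robust quasi-likelihood fit to all 12 libraries with 1 mean per group and 8 residual degrees of freedom. All features entered the fit, p-values were two-sided and adjusted by Benjamini-Hochberg over all tested features, and counts of genes are given for Ensembl genes. The SE is the size of the log2 fold change over the root of F, which is unstable for a value near 0 at low counts, so for the KLF4 difference between lines the SEs of both lines were combined, and CPM uses the total of tested features times the TMM factor. The fit was run on simulated data in which a small set of genes was changed, up and down alike, in WERI with THZ1 only. Such data do not test whether most genes are unchanged, as TMM assumes. Alternatives were RLE size factors, library size alone, scaling by the 13 mitochondrially encoded mRNAs, no filter on low counts, DESeq2 1.42.0, only the groups compared, a replicate block, and leaving out each library.

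Samples were grouped by the labels. A count of 0 allows up to 3 counts, for counting error only. All 10 members are named; of each other list, genes whose log2 CPM averaged 1 or more and that were called in a line were named if among its 2 largest rises or 2 largest falls there, and a selection of these is printed in the report; 1 gene that the rule names is not reported here. The members, lists and tests were chosen with earlier results of these data known, so no list is independent support of a direction. Tables and figures came from pandas 2.3.3, numpy 2.4.6 and matplotlib 3.10.9 under Python 3.11.15.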

Additional observations from a re-analysis of the deposited data

Results flagged for a closer look

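Each gene named here is given because its log2 fold change with THZ1 differed between the lines by the test of that difference (Y79 minus WERI, edgeR with Benjamini-Hochberg adjustment over all tested features), which called 22.0% of all tested genes, and 35.0% without library 2 of Y79 in THZ1. Among the members this was KLF10, with -0.44 (adjusted p = 0.00544), as described above. Among the other KLF and SP factors it was SP9 (-1.32, adjusted p = 0.000544), KLF15 (-1.28, adjusted p = 0.00595) and SP6, a factor of tooth and skin development (-1.05, adjusted p = 0.0212). SP6 stood at 16.4 ± 1.60 CPM with DMSO and 26.2 ± 3.51 with THZ1 in WERI (SD, n = 3), a rise that was not called with library size alone (0.23, adjusted p = 0.280). In Y79 it stood at 3.55 ± 0.833 and 2.78 ± 0.867 CPM, with overlapping groups and a change of -0.37 that was not called. The difference of SP6 between the lines was not called without any of 5 libraries (WERI DMSO 2, WERI THZ1 2, Y79 DMSO 2, Y79 THZ1 1 or 3), with values of -0.99, -0.94, -0.84, -0.91 and -0.90 in that order.

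The corepressor genes differed in opposite senses: SIN3A fell less in Y79 (0.44) and CTBP2 fell more (-0.52). Of the regulators, ELK4 (0.76), FBXW7 (0.49) and SMURF1, a ubiquitin ligase that removes KLF2 (0.90), rose more in Y79, and MAPK7 (-0.93) fell more. Of the described targets, CCNB1 fell more in Y79 (-0.55). Of the glucocorticoid early genes, SGK1 (-0.71), TSC22D3 (-1.25) and DUSP1 (-1.06) were less responsive in Y79 or went lower. The call of TSC22D3 was lost without Y79 DMSO library 2 (-1.13) or 3 (-1.06), and with the replicate number as a block (-1.23, adjusted p = 0.0554), as was that of FBXW7 (0.49, adjusted p = 0.0624). Of the TGF-beta early genes, ID2 rose more in Y79 (0.54) and TGIF1, a corepressor of SMADs, differed by -0.89. Of the immediate early genes, FOSB rose less in Y79 (-2.51). MYC rose in WERI (1.09, adjusted p = 0.000876) and fell in Y79 (-0.89, adjusted p = 0.00156), a difference of -1.99 (adjusted p = 0.000658), while with mitochondrial scaling it was lower in WERI too. With mitochondrial scaling the calls of KLF10, SP6, CTBP2 and CCNB1 were lost, and with library size those of ELK4, FBXW7 and SIN3A.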

How the results depend on the processing

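Scaling changed most. With mitochondrial scaling the log2 fold changes in WERI were -1.37 for KLF2, -0.85 for KLF5, -0.90 for KLF6, -1.56 for KLF9 and -0.68 for KLF10, and in Y79 -0.068 for KLF2, -0.41 for KLF5, -0.63 for KLF6, -1.43 for KLF7, -1.44 for KLF9 and -0.94 for KLF10. With library size alone KLF9 was at -0.12 in WERI and -0.29 in Y79 and KLF7 at -0.27 in Y79. Other genes above 0 with TMM were below it with mitochondrial scaling: in WERI SP9 (-1.03), SP6 (-1.21), HDAC1 (-0.75), HDAC3 (-0.84), ELK4 (-1.02), FBXW7 (-1.21), SMURF1 (-1.42), TSC22D3 (-0.87), DUSP1 (-1.35) and MYC (-0.82), and in Y79 HDAC1 (-0.48), HDAC3 (-0.83), ELK4 (-0.082), FBXW7 (-0.54) and SMURF1 (-0.34). The log2 ratio of the summed KLF level was 0.45 in WERI with RLE factors, -0.085 and -0.24 in WERI and Y79 with library size, and -1.54 and -1.38 with mitochondrial scaling. The cause was not tested.

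Differences between the lines that were not called changed sign near 0. With mitochondrial scaling they were 0.087 for KLF3, 0.17 for KLF4, 0.11 for KLF9 and 0.13 for KLF13, and with library size -0.028 for KLF6. Leaving out 1 library they ranged from -0.28 to 0.11 for KLF3, -0.32 to 0.23 for KLF4, -0.17 to 0.081 for KLF9 and -0.13 to 0.066 for KLF13. For Y79 against WERI in THZ1, KLF7 ranged from -0.25 to 0.14, and KLF13 was at -0.013 with library size. The values of 0.11 for KLF3, 0.066 for KLF13 and 0.14 for KLF7 came from leaving out library 2 of Y79 in THZ1. The number of members whose response differed between the lines was 0 with mitochondrial scaling and 1 to 2 when 1 library was left out. All genes called there ranged from 2342 to 5208, the highest without library 2 of Y79 in THZ1.

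With the replicate number as a block, 9221 genes were called in WERI, 9741 in Y79 and 2304 for the difference, with 7, 7 and 1 members; KLF9 in Y79 was not called (adjusted p = 0.0688), KLF2 in Y79 was (1.82, adjusted p = 0.0118), and KLF13 between the lines in THZ1 was not (adjusted p = 0.0527), nor were the differences between lines of TSC22D3 (-1.23, adjusted p = 0.0554) and FBXW7 (0.49, adjusted p = 0.0624). Same-numbered samples did not deviate together (correlations over genes of -0.22, -0.05 and -0.08 in WERI and -0.06, -0.08 and -0.09 in Y79), so the numbers are not taken as pairs. DESeq2 kept the direction and the call of all 10 members in all 5 comparisons. Depth limits KLF2, KLF4 and KLF11 in Y79, with 0 to 116 counts a library, and KLF3 in Y79 with THZ1, with 27 to 61.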
